A study of Mus musculus with 11 samples.

Results

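The EGF receptor family and its ligands were followed across 3 versions of AML12 cells, a line of mouse hepatocytes. The set holds 9 genes, taken by their names in the deposited gene table, which gave 24849 genes after entries of the same name were summed: the receptors *Egfr*, *Erbb2* and *Erbb3*, the ligands *Tgfa*, *Areg*, *Ereg*, *Hbegf* and *Btc*, and *Errfi1*, a cytoplasmic inhibitor of the receptors. All 9 were found in the table. Polyadenylated RNA was read out in 11 libraries, 4 of KO, 3 of WT and 4 of KI cells. The KO cells had *Txndc5* cut in the fifth exon by CRISPR/Cas9, with a puromycin resistance gene recombined into it for selection, and their labels call the genotype a knockdown; the WT cells were unedited; and the KI cells overexpressed TXNDC5 from the ROSA26 locus, under a promoter and selection not given in the sources used here. TXNDC5 is a protein disulfide isomerase of the endoplasmic reticulum (ER). According to the study's methods for the line, cells grew in medium with fetal bovine serum, insulin, transferrin, selenium and dexamethasone, without an added EGF receptor ligand. Nothing in the labels says that libraries of a group came from separate cultures or from more than 1 clone, so the p-values measure the spread between these libraries only, which may be technical, and differences between clones and effects of the genotype cannot be told apart.

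The receptors of this family are tyrosine kinases of the cell surface that work as pairs. EGFR binds TGF-alpha, amphiregulin (*Areg*), epiregulin (*Ereg*), heparin-binding EGF-like growth factor (*Hbegf*) and betacellulin (*Btc*); ERBB2 has no known ligand and acts as a partner; ERBB3 has little kinase activity of its own and binds neuregulins. The ligands are made as membrane proteins and are released by metalloproteases, and the active receptors start the RAS and ERK cascade, which switches on immediate-early genes and its own brakes, ERRFI1 among them. In the liver this system is known for driving hepatocyte division during regeneration. AML12 cells were derived from a mouse that carried a human TGFA transgene, so TGF-alpha has a special place in this line, and reads of a human transgene counted on the mouse gene cannot be told apart from reads of the mouse gene itself.

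The KO cells had less *Egfr*, *Btc* and *Errfi1* RNA than the WT cells, by 1.61-fold, 2.72-fold and 1.55-fold. The KI cells had more *Egfr* (1.51-fold) and *Hbegf* (1.96-fold) than the WT cells and less *Ereg* (1.97-fold) and *Errfi1* (2.17-fold). *Egfr* therefore lay in the order KO, WT, KI, while *Errfi1* was highest in the WT cells and lower in both edited lines. The calls of *Egfr* and *Errfi1* in KO against WT, unlike the other calls named here, were lost when libraries were scaled to their totals. Fewer cells with a transcript and less of it per cell cannot be told apart in RNA of whole cultures. *Erbb2* and *Areg* passed the test in none of the 3 comparisons, with adjusted p-values between 0.13 and 0.83. The folds come from the quasi-likelihood test of edgeR, with p-values adjusted by Benjamini and Hochberg's method over all genes tested, and a gene was called when its adjusted p was under 0.05.

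The sequences just upstream of transcription starts are shown for 4 genes. *Egfr*, *Btc* and *Errfi1* were called in KO against WT, and *Areg* shares its motif letters with *Errfi1*. No window was at hand for *Erbb3*, *Ereg* and *Hbegf*, so the last 2, on which the KI comparisons also turn, are not shown. RefSeq windows on GRCm38.p6 were at hand for 6 of the 9 genes, and 250 bases before the start were searched on both strands for TGANTCA (an AP-1 site), GCGNGGGCG (an EGR site), GGGCGG (a GC box), TGACGTCA (a cAMP response element) and the core promoter element TATAAA. These letters were found in 6.75%, 4.70%, 32.7%, 1.55% and 12.4% of 32851 windows of the same length over all genes. Capitals mark the matches, on either strand, and the sequences run 5′ to 3′ on the strand of the gene. They lie at chr11:16751953-16752202 (*Egfr*, plus strand), chr5:91139349-91139598 (*Areg*, plus strand), chr5:91402995-91403244 (*Btc*, minus strand) and chr4:150854950-150855069 (*Errfi1*, plus strand, the second of its 2 starts, cut to the 120 bases outside annotated exons).
Egfr: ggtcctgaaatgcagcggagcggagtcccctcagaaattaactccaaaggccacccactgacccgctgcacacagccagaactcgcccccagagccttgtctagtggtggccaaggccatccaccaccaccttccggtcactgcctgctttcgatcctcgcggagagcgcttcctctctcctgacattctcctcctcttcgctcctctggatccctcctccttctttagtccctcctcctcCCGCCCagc
Areg: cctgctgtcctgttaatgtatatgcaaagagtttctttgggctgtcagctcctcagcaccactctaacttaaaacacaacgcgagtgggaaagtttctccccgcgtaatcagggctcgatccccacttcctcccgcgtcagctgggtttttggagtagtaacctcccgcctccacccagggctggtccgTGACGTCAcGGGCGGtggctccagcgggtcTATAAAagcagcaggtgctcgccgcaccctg
Btc: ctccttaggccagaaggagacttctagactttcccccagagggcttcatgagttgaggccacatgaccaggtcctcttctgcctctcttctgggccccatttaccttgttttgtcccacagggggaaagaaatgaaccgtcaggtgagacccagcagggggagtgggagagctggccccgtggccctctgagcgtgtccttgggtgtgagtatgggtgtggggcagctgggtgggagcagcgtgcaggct
Errfi1: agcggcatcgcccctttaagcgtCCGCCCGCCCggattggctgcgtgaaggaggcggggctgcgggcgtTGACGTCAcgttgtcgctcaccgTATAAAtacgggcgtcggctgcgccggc
The *Egfr* window holds a GC box from base -9 to -4 and none of the other letters. The *Areg* window holds a cAMP response element from -61 to -54, a GC box from -52 to -47 and the letters TATAAA from -31 to -26, and that of *Errfi1* holds the same element from -51 to -44, the letters TATAAA from -28 to -23 and, further up, within the bases shown, overlapping GC boxes from -97 to -92 and from -93 to -88. The *Btc* window holds none of the 5. No AP-1 or EGR letters were found in the windows of the 6 genes. These are matches of letters, and no binding was measured here. *Egfr* and *Erbb2* lie on chromosome 11, and *Ereg*, *Areg* and *Btc* are neighbours on chromosome 5 in the RefSeq order of genes.

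The libraries held 29840366 to 38422243 counts. *Txndc5* itself was at 8.50, 9.39, 10.2 and 12.9 CPM (counts scaled to library size, with TMM factors over all 11 libraries) in the KO, at 138, 143 and 147 in the WT and at 158 to 180 in the KI libraries, so the groups did not overlap and RNA of the gene was still counted in the KO libraries. The log2 fold change was -3.81 in KO against WT (standard error 0.15, edgeR adjusted p = 4.09e-08), and 0.24 in KI against WT (standard error 0.12, adjusted p = 0.136), which did not pass; scaled to library totals the latter was 0.57 (adjusted p = 0.00623) and passed. The hepatocyte markers summed to 9866 to 11736 CPM in the KO, 7418 to 9459 in the WT and 8603 to 10177 in the KI libraries. They were not even: *Alb* averaged 4115, 513 and 246 CPM, while *Trf* averaged 1346, 2975 and 1410 and *Ttr* 438, 826 and 597. *Krt8* was highest in the KI libraries, at 2660, 2839 and 4357 CPM. *Tat* and *Cps1* were under 3 CPM on average in each line. In KO against WT, 9 of 11 tested were called, 7 higher and 2 lower, beside 55.1% of all genes, 26.7% higher and 28.4% lower. The 5 cholangiocyte markers, with *Epcam* at 0 in all libraries, summed to 1086 to 1221 CPM in the KO, 862 to 1091 in the WT and 710 to 974 in the KI libraries. *Krt19* averaged 1097, 770 and 747 CPM and *Krt7* 17.0, 177 and 118. Of these markers, 3 of 3 tested were called in KO against WT, 1 higher and 2 lower, beside the same shares of all genes. The 6 fibroblast or stellate markers summed to 0.248 to 1.15 CPM, with *Col1a2* and *Col3a1* at 0 in all libraries, and the 3 endothelial markers to at most 0.425 CPM. The 4 macrophage markers, with *Adgre1* at 0, summed to 1.89 to 2.58 CPM in the KO, 6.64 to 9.56 in the WT and 3.24 to 6.66 in the KI libraries, without overlap of KO and WT. In KO against WT 2 of 3 tested were called lower, beside 28.4% of all genes. The part of these markers in the results was not tested. TMM factors were 0.744 to 0.947 in the WT and 1.02 to 1.13 in the edited lines. When libraries were scaled to their totals instead, the median log2 difference over the genes tested went from -0.03 to 0.38 in KO against WT and from -0.02 to 0.30 in KI against WT, and changes are given relative to the TMM scale.

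*Egfr* was counted 1583 to 5836 times per library. Its level was 45.5, 55.5, 47.5 and 65.5 CPM in the KO libraries, 71.7, 87.4 and 95.4 CPM in the WT libraries and 134, 118, 153 and 109.8 CPM in the KI libraries. Each KO library lay below each WT library, and each WT library below each KI library. The means were 53.5 ± 9.10 (SD, n = 4), 84.8 ± 12.1 (SD, n = 3) and 128 ± 18.9 CPM (SD, n = 4). Against WT, the KO value gave a log2 fold change of -0.68 (standard error 0.16, edgeR adjusted p = 0.00342). In KI against WT it was 0.60 (standard error 0.16, edgeR adjusted p = 0.00911), and in the direct comparison of KO against KI it was -1.26 (standard error 0.13, edgeR adjusted p = 1.12e-06). Scaled to library totals, the value in KO against WT was -0.28 with an edgeR adjusted p of 0.252, and the call was lost. It held without each library in turn, between -0.80 and -0.56.

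**Figure D1:**
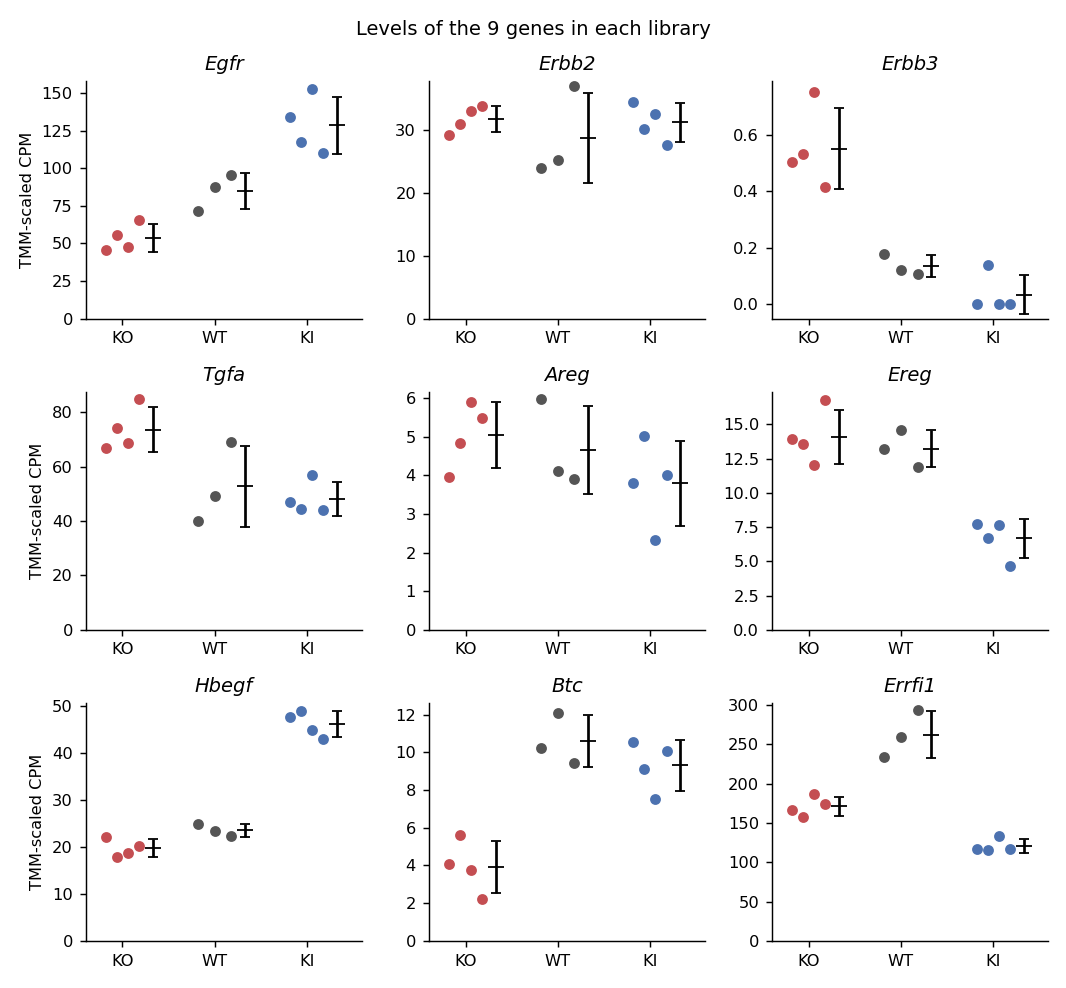
Level of each of the 9 genes in each library, in TMM-scaled CPM (linear axis, each gene on its own scale), with 1 point per library and the group mean ± SD beside it (KO n = 4, WT n = 3, KI n = 4). Egfr lies in the order KO, WT, KI without overlap, Errfi1 is highest in the WT libraries, and Hbegf and Ereg set the KI libraries apart.

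*Erbb2*, the partner receptor, was at 29.2 to 33.8 CPM in the KO, at 24.0, 25.2 and 37.0 CPM in the WT and at 27.6 to 34.5 CPM in the KI libraries. The KO and KI values lie inside the range of the 3 WT libraries, of which the WT 8 library was the high one. The log2 fold changes were 0.12 (standard error 0.16) in KO against WT, 0.12 (standard error 0.17) in KI against WT and 0.03 (standard error 0.10) in KO against KI, with edgeR adjusted p-values of 0.54, 0.61 and 0.83. Without WT 8, the first was 0.38 with an adjusted p of 0.0199 and would have been called.

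*Erbb3*, the neuregulin receptor, was counted at most 25 times in a library. The KO libraries held 18, 18, 25 and 18 counts of it, the WT libraries 4, 3 and 3, and the KI libraries 0, 5, 0 and 0. Every KO library was above every other library, at levels of 0.41 to 0.75 CPM. Summed over libraries and scaled to depth, the KO level was 4.08 times that of the WT (95% exact interval 2.10 to 8.83) and 15.5 times that of the KI (6.36 to 49.0); these intervals cover counting error only. *Erbb3* passed the filter on low counts only through the KO libraries, so it had to differ there once tested, and its edgeR values are not used as support. It was not tested in KI against WT. Per kilobase of exon it stayed under 0.1 CPM in each line, against 4.88 to 11.7 for *Egfr* and 5.74 to 6.34 for *Erbb2*, so *Egfr* and *Erbb2* made up nearly all receptor RNA of the family.

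*Tgfa* was the ligand with the most RNA in the KO libraries. Its level was 66.7, 74.1, 68.6 and 85.0 CPM in the KO libraries, 39.9, 49.2 and 69.1 CPM in the WT libraries and 46.9, 44.6, 57.1 and 44.0 CPM in the KI libraries. The KO and KI libraries did not overlap, whereas the WT libraries ranged from below the KI to within the KO values. KO against KI gave a log2 fold change of 0.62 (standard error 0.11, edgeR adjusted p = 0.000228). In KO against WT it was 0.46 (standard error 0.18, edgeR adjusted p = 0.0475), just past the threshold, and in KI against WT it was -0.13 (standard error 0.18, edgeR adjusted p = 0.583). The call against WT was lost on leaving out any library but WT 8, with values of 0.32 without WT 5-6 and 0.73 without WT 8, and in 4 of 10 other settings. The call against KI held in all 10 other settings and without each of the 8 libraries in turn.

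*Hbegf*, which binds heparan sulphate and also activates ERBB4, was at 22.2, 17.9, 18.8 and 20.3 CPM in the KO, at 24.9, 23.4 and 22.3 CPM in the WT and at 47.8, 49.1, 44.9 and 43.2 CPM in the KI libraries. The KI libraries stood well above the rest, while the highest KO and the lowest WT library were next to each other. In KI against WT the log2 fold change was 0.97 (standard error 0.13, edgeR adjusted p = 0.000127), and in KO against KI it was -1.22 (standard error 0.098, edgeR adjusted p = 7.46e-08). In KO against WT it was -0.27 (standard error 0.13, edgeR adjusted p = 0.102) and turned to 0.14 with library totals, so no direction can be given.

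*Ereg* was at 13.9, 13.6, 12.0 and 16.8 CPM in the KO, at 13.2, 14.6 and 11.9 CPM in the WT and at 7.75, 6.67, 7.66 and 4.68 CPM in the KI libraries. Each KI library was below each of the others, and the KO and WT values were interleaved. The log2 fold change was -0.98 in KI against WT (standard error 0.20, edgeR adjusted p = 0.00195) and 1.07 in KO against KI (standard error 0.17, edgeR adjusted p = 7.50e-05). In KO against WT it was 0.07 (standard error 0.16, edgeR adjusted p = 0.738). With library totals the last was 0.49 with an adjusted p of 0.0345.

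*Btc*, which binds both EGFR and ERBB4, showed the reverse grouping. Its level was 4.07, 5.63, 3.78 and 2.21 CPM in the KO, 10.2, 12.1 and 9.42 CPM in the WT and 10.5, 9.13, 7.50 and 10.1 CPM in the KI libraries. All KO libraries were below all others, on 96 to 190 counts, and the WT and KI ranges overlapped. In log2 terms the difference was -1.44 in KO against WT (standard error 0.27, edgeR adjusted p = 0.00102) and -1.24 in KO against KI (standard error 0.23, edgeR adjusted p = 0.000305). In KI against WT it was -0.18 (standard error 0.18, edgeR adjusted p = 0.433).

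*Areg*, the remaining neighbour on chromosome 5, had 89 to 239 counts per library and levels of 3.95 to 5.91 CPM in the KO, 3.89 to 5.97 CPM in the WT and 2.33 to 5.02 CPM in the KI libraries. The 3 ranges overlapped. The log2 fold changes of 0.10 (standard error 0.23), -0.29 (standard error 0.28) and 0.42 (standard error 0.23) had edgeR adjusted p-values of 0.736, 0.422 and 0.134. The 3 adjacent ligand genes thus had 3 patterns: *Ereg* was low in the KI cells, *Btc* was low in the KO cells, and *Areg* passed no test.

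**Figure D2:**
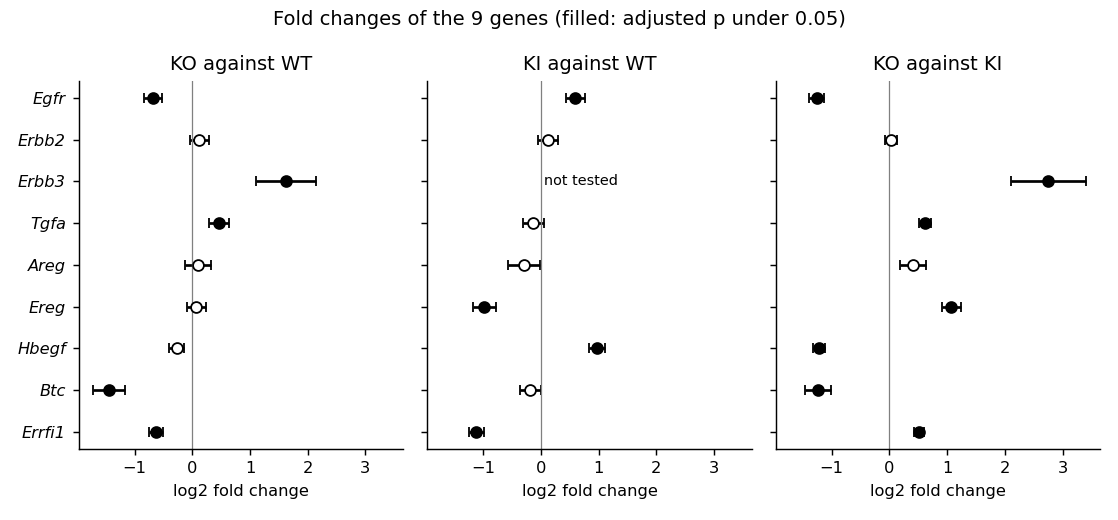
Log2 fold change ± standard error of the 9 genes in the 3 comparisons, from edgeR, with filled points where the adjusted p was under 0.05. Egfr and Hbegf lie on opposite sides of 0 in KO against KI from Ereg, Tgfa and Errfi1, and Erbb3, which passed the filter only through the KO libraries, was not tested in KI against WT.

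The levels of the ligands were compared with each other per kilobase of exon, since their transcripts differ in length from 1215 bases (*Areg*) to 4527 bases (*Tgfa*). Summed over the 5 ligands, the level was 33.5 ± 2.16 CPM per kb in the KO (SD, n = 4), 32.3 ± 1.55 in the WT (SD, n = 3) and 38.1 ± 1.64 in the KI libraries (SD, n = 4). *Tgfa* made up 48.4 ± 2.38% of it in the KO and 27.9 ± 3.66% in the KI libraries, and *Hbegf* 24.9 ± 2.89% and 51.1 ± 1.07% (SD, n = 4 each). In the WT libraries *Tgfa* held 28.5%, 34.1% and 44.9% and *Hbegf* 33.9%, 31.0% and 27.6%, so the order of these 2 ligands differed between WT libraries. *Tgfa* was the first ligand in 4 of 4 KO libraries, and *Hbegf* in 4 of 4 KI libraries. *Btc* held 4.12 ± 1.57% in the KO, 11.4 ± 1.79% in the WT and 8.52 ± 1.32% in the KI libraries, and *Ereg* 10.1 ± 0.852%, 9.97 ± 1.37% and 4.24 ± 0.798%. These shares are given as descriptions, without a test.

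**Figure D3:**
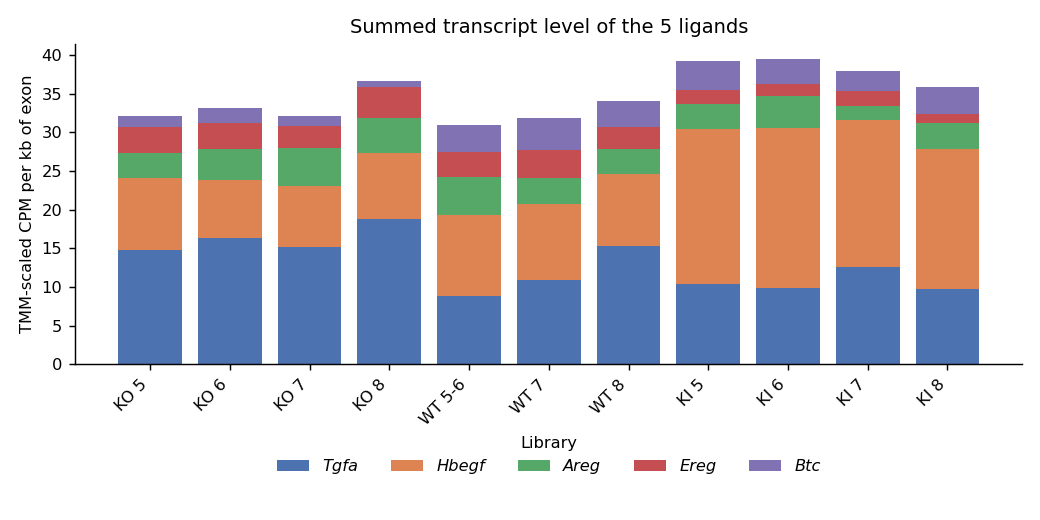
Level of the 5 ligands in each of the 11 libraries, in TMM-scaled CPM per kb of exon, stacked (linear axis from 0). Tgfa is the largest segment in the 4 KO libraries and Hbegf in the 4 KI libraries, while in the WT libraries Hbegf is ahead of Tgfa in 1 and behind it in 2.

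*Errfi1*, whose product (also known as MIG6) binds the EGFR kinase domain and blocks it, had the most RNA of the set per kilobase of exon. Its level was 166, 158, 187 and 174 CPM in the KO libraries, 234, 259 and 293 CPM in the WT libraries and 117, 116, 133 and 117 CPM in the KI libraries. The 3 groups did not overlap, in the order KI, KO, WT. The log2 fold change was -0.63 in KO against WT (standard error 0.12, edgeR adjusted p = 0.00133), -1.12 in KI against WT (standard error 0.13, edgeR adjusted p = 4.62e-05) and 0.51 in KO against KI (standard error 0.086, edgeR adjusted p = 0.000153). The table holds *Errfi1* as 2 entries, with 1741 to 3583 and 2100 to 4702 counts per library, and each alone gave the same calls, with -0.70 and -0.59 against WT in the KO and -1.21 and -1.05 in the KI libraries. Scaled to library totals, the value in KO against WT was -0.23 with an edgeR adjusted p of 0.229, and the call was lost, whereas that in KI against WT was -0.80 and was called.

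Per kilobase, *Errfi1* had 11.1 ± 2.09 times the level of *Egfr* in the KO libraries (SD, n = 4), 10.5 ± 0.505 times in the WT libraries (SD, n = 3) and 3.21 ± 0.318 times in the KI libraries (SD, n = 4). Here the counts of *Errfi1* were summed over its 2 entries and divided by 1 exonic length, 3235 bases. Whether both entries hold the same reads was not tested. If they do, the ratio and the level of *Errfi1* per kilobase are too high. The KO and WT ranges of this ratio overlapped, and the KI range, 2.95 to 3.60, lay below both. Per kilobase the order in the WT libraries was *Errfi1* (81.0 CPM per kb), *Tgfa* (11.7), *Hbegf* (9.92), *Egfr* (7.74), *Erbb2* (5.74), *Areg* (3.84), *Btc* (3.68), *Ereg* (3.21) and *Erbb3* (0.022). In the KI libraries *Hbegf* (19.5) and *Egfr* (11.7) stood above *Tgfa* (10.6).

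In all, 4 of 8 genes without *Erbb3* were called in KO against WT, 1 higher and 3 lower, or 5 of 9 with it, beside 55.1% of all 13359 genes tested, 26.7% higher and 28.4% lower. In KI against WT, 4 of 8 tested were called, 2 in each direction, beside 42.3% of 13534 genes, 21.2% higher and 21.0% lower. In KO against KI, 6 of 8 without *Erbb3* were called, 3 in each direction, or 7 of 9 with it, beside 54.0% of 13269 genes, 27.0% in each direction. With *Erbb3* counted and library totals as the scale, 4 were called in KO against WT (3 higher, 1 lower), 4 in KI against WT (2 in each direction) and 7 in KO against KI (4 higher, 3 lower). The groups did not overlap for 4, 4 and 6 of the genes other than *Erbb3*, beside 55.1%, 44.6% and 48.8% of all genes tested. Their median log2 fold change was -0.10, -0.16 and 0.22. The shares in the first and second comparison were thus near those of the whole table. The comparisons share libraries (the WT libraries serve both edited lines) and are not independent of each other. The share of calls that were higher over all genes was 48.5% in KO against WT and 50.2% in KI against WT, and scaling to library totals moved these shares to 72.8% and 76.3%.

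Between libraries of the same group, some of the 9 genes moved with a measure of transcript length. The length index of a library is the median log2 level, relative to each gene's own mean, of the longest 25% of genes minus that of the shortest 25%. It was -0.57, -0.19 and 0.13 in the WT libraries, -0.12 to 0.34 in the KO and -0.12 to 0.23 in the KI libraries. WT 5-6 had the lowest index and the lowest *Egfr*, *Erbb2*, *Tgfa* and *Errfi1* of the WT libraries, and WT 8 had the highest of each. Relative to its group, *Egfr* was on the same side as the index in 10 of 11 libraries, *Erbb2* in 9, *Tgfa* and *Errfi1* in 8, and *Hbegf* in 3. The deviations correlated with the index at 0.94 for *Tgfa*, 0.88 for *Egfr*, 0.84 for *Erbb2* and 0.76 for *Errfi1*. For *Hbegf*, with 2375 exonic bases, the correlation was -0.51. For *Erbb3*, with 6016 exonic bases against 4527 of *Tgfa*, it was -0.46, on at most 25 counts in a library. The part of transcript length in these deviations was not tested. With the index as a covariate, a setting chosen after seeing the data, the log2 fold change of *Tgfa* was 0.15 (edgeR adjusted p = 0.239) in KO against WT and -0.38 (edgeR adjusted p = 0.0139) in KI against WT. That of *Egfr* was -0.95 and 0.41, and that of *Errfi1* -0.76 and -1.23, and these calls were kept.

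**Figure D4:**
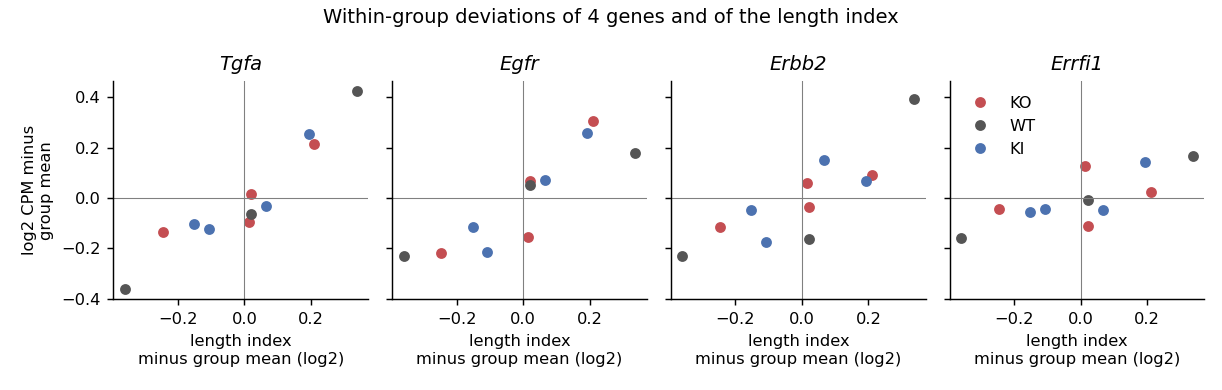
Deviation of the log2 CPM of Tgfa, Egfr, Erbb2 and Errfi1 from their group means (vertical) against that of the length index (horizontal), with 1 point per library (KO n = 4, WT n = 3, KI n = 4). WT 5-6, at the left, and WT 8, at the right, are the ends of the index and also of the Tgfa values.

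The genes whose pattern over the 11 libraries was most like that of a member were found among 10653 genes by the root-mean-square difference of their log2 levels, each centred on its own mean. For *Egfr* these were *Steap2* (0.124), *Gldc* (0.140) and *Ddx19a* (0.146), for *Tgfa* they were *Ambra1* (0.0782), *Gtf3c5* (0.0924) and *Fbxo32* (0.0933), and for *Errfi1* they were *Pxk* (0.116), *Lbp* (0.132) and *Rab2b* (0.135). The same measure of the member about its own mean was 0.573, 0.347 and 0.451. *Gldc*, a subunit of the glycine cleavage system, averaged 81.4, 142 and 203 CPM in the KO, WT and KI libraries, the order of *Egfr*. *Lbp*, the secreted binding protein for bacterial lipopolysaccharide, averaged 279, 384 and 186 CPM, the order of *Errfi1*. Both were chosen for likeness over these same libraries, so their shared order was set in advance.

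A list of 63 other genes of the pathway was read from the same fits. Of those tested, 34 of 60 were called in KO against WT (14 higher, 20 lower), 28 of 58 in KI against WT (18 higher, 10 lower) and 31 of 58 in KO against KI (10 higher, 21 lower), with median log2 fold changes of -0.10, 0.14 and -0.15. Scaled to library totals, the directions shifted: 33 were called in KO against WT (23 higher, 10 lower), 28 in KI against WT (24 higher, 4 lower) and 28 in KO against KI (10 higher, 18 lower). Their shares of 56.7%, 48.3% and 53.4% on the TMM scale lie beside the 55.1%, 42.3% and 54.0% of all genes. *Lrig3* and *Fosb* in KO against WT, and *Lrig3* and *Nrg2* in KO against KI, had under 10 counts in every library of 1 group and so had to differ to be tested; without them 32 of 58 (13 higher, 19 lower) and 29 of 56 (9 higher, 20 lower) were called.

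**Figure D5:**
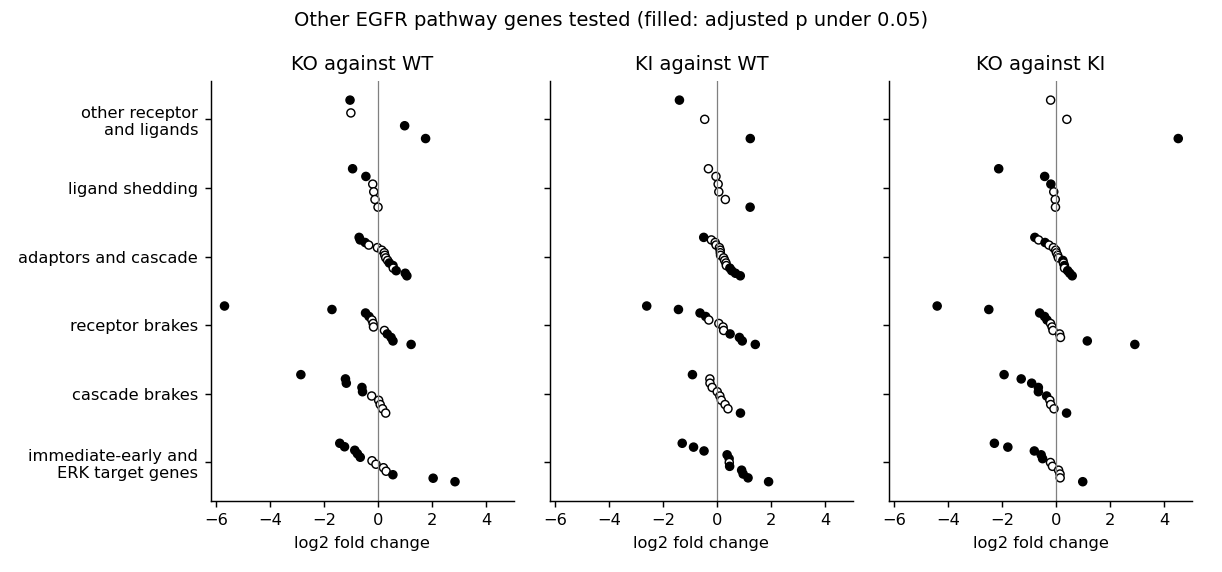
Log2 fold change of the other EGFR pathway genes tested in the 3 comparisons, by sublist, 1 point per gene, filled where the edgeR adjusted p was under 0.05. On this TMM scale the cascade brakes called in KO against WT all lie below 0 (scaled to library totals, 2 of the 5 called were higher), and the farthest point to the left is Lrig3, which had no counts in the KO libraries, so its position is not a measured fold.

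Among the receptor and ligands outside the set, *Erbb4* and *Nrg3* had 0 counts in all 11 libraries, which allows up to 3 counts over them together, and *Egf* and *Epgn* reached at most 29 and 8 counts in a library. Neuregulins, which bind ERBB3, ERBB4 or both, were present. *Nrg1* averaged 32.1 ± 5.61 CPM in the KO, 15.9 ± 3.28 in the WT and 37.4 ± 1.32 in the KI libraries (SD, n = 4, 3 and 4), with log2 fold changes against WT of 0.99 (edgeR adjusted p = 0.00131) and 1.22 (edgeR adjusted p = 0.000112). *Nrg4* was lower than in WT in both edited lines, at 4.31 and 3.29 against 8.77 CPM, with log2 fold changes of -1.04 (edgeR adjusted p = 0.00255) and -1.40 (edgeR adjusted p = 0.000211). *Nrg2* had 368 counts summed over the KO, 50 over the WT and 8 over the KI libraries, and its level in the KO was 3.80 times that of the WT (95% exact interval 2.82 to 5.21, counting error only). Like *Erbb3* it was not tested in KI against WT.

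Of the 6 genes of ligand shedding, 2 were called in KO against WT, both lower, 1 in KI against WT, higher, and 3 in KO against KI, all lower, beside 55.1%, 42.3% and 54.0% of all genes. On library totals, 1 was called lower in KO against WT, 2 higher in KI against WT and 2 lower in KO against KI. *Adam12*, a metalloprotease that can release HB-EGF, averaged 6.57 CPM in the KO, 12.5 in the WT and 29.2 in the KI libraries, the order of *Egfr*. Its log2 fold changes against WT were -0.94 (edgeR adjusted p = 0.000716) and 1.22 (edgeR adjusted p = 0.00022). How many of all genes lie in this order was not counted, for *Adam12* or for the genes below that share it. *Adam17*, the main sheddase of several of these ligands, was at 70.5, 79.8 and 81.6 CPM and was called in KO against KI, with a log2 fold change of -0.21 (edgeR adjusted p = 0.0432), a call lost on leaving out any 1 of 7 of the 8 libraries. *Adam9* was lower in KO than in KI, with a log2 fold change of -0.44 (edgeR adjusted p = 0.00235). *Rhbdf2*, which helps ADAM17 to mature, had -0.45 (edgeR adjusted p = 0.0479) in KO against WT, and this call was lost with library totals (-0.051, edgeR adjusted p = 0.859), without the filter (-0.44), with each table entry on its own (-0.45) and without any 1 of KO 5, KO 7, WT 5-6, WT 7 and WT 8.

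Of the 16 adaptors and cascade kinases, 8 were called in KO against WT (5 higher, 3 lower), 5 in KI against WT (4 higher, 1 lower) and 7 in KO against KI (5 higher, 2 lower), beside the same shares of all genes. Scaled to library totals, the counts were 11 and 7, all higher, in the comparisons against WT. *Hras* averaged 99.3 CPM in the KO, 48.7 in the WT and 70.7 in the KI libraries. It rose against WT in both edited lines, by 1.01 (edgeR adjusted p = 3.97e-05) and 0.54 (edgeR adjusted p = 0.00688) on the log2 scale. *Map2k1* (encoding MEK1) was lower in KO than in WT, at 109 against 174 CPM, with a log2 fold change of -0.70 (edgeR adjusted p = 0.000388) that fell short of the threshold with library totals. *Sos2*, an exchange factor for RAS, was higher in KI than in WT by 0.85 (edgeR adjusted p = 0.00273).

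Of the 12 receptor brakes, 8 were called in KO against WT and 8 in KI against WT, 4 in each direction in both, and 7 in KO against KI (2 higher, 5 lower), beside 55.1%, 42.3% and 54.0% of all genes. With scaling to totals, 6 were called in each comparison against WT (4 higher, 2 lower in both) and 5 in KO against KI (2 higher, 3 lower). *Lrig3*, of a family of transmembrane proteins that bind the receptors, had 0 counts in all 4 KO libraries, 50 to 132 counts in the WT and 23 to 71 in the KI libraries. With a floor of 3 counts over the 4 KO libraries together, and the counts of the other group taken as exact, it came out 159-fold lower in KO than in WT and 54.8-fold lower than in KI. The upper limits of the exact 95% intervals of the ratio, which also take in the counting error of the other group, were 0.0078 and 0.0227. These limits allow smaller differences than the folds from the floor. *Sh3kbp1* (CIN85), an adaptor of CBL in receptor uptake, averaged 2.98, 9.77 and 17.3 CPM, the order of *Egfr*, with a log2 fold change of -1.71 (edgeR adjusted p = 9.06e-05) in KO against WT. *Cblc*, a ubiquitin ligase, was at 2.41 CPM in the WT and 0.344 CPM in the KI libraries, with -2.61 (edgeR adjusted p = 0.00101) in KI against WT. *Socs5* was higher than in WT in both edited lines, by 1.23 (edgeR adjusted p = 0.000325) and 1.41 (edgeR adjusted p = 7.87e-05).

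Of the 10 brakes of the cascade, 5 were called in KO against WT, all lower, beside 28.4% of all genes called lower. In KI against WT 2 were called, 1 in each direction, and in KO against KI 7 (1 higher, 6 lower), beside 27.0% lower over all genes. Scaled to library totals, the 5 called in KO against WT were 2 higher and 3 lower, so the single direction there holds on the TMM scale only. With library totals, 3 were called in KI against WT, all higher, and 7 in KO against KI (1 higher, 6 lower), as on the TMM scale for the latter. The Sprouty genes *Spry4* and *Spry2* and the ERK phosphatase *Dusp5* had the largest differences. *Spry4* averaged 0.356 CPM in the KO, 2.94 in the WT and 1.53 in the KI libraries, on 8 to 15 counts in the KO, with a log2 fold change of -2.86 (edgeR adjusted p = 0.000171) in KO against WT. *Spry2* was at 3.68, 8.47 and 7.03 CPM, with -1.21 (edgeR adjusted p = 0.000839). *Dusp5* was at 4.62, 10.4 and 11.6 CPM, with -1.18 (edgeR adjusted p = 0.000664). *Dusp6* was higher in KI than in WT, at 65.4 against 35.9 CPM, by 0.86 (edgeR adjusted p = 0.000318), and *Dusp4* had 0.40 (edgeR adjusted p = 0.0797) there, which did not pass.

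Of the 12 immediate-early and ERK target genes, 8 were called in KO against WT (3 higher, 5 lower), 10 of 11 tested in KI against WT (7 higher, 3 lower) and 6 of 11 in KO against KI (1 higher, 5 lower), beside 55.1%, 42.3% and 54.0% of all genes. After scaling to totals, the counts were 7 (4 higher, 3 lower), 8 (7 higher, 1 lower) and 6 (1 higher, 5 lower). *Fosb*, 1 of those called higher in KO against WT, had 45 counts summed over the KO, 2 over the WT and 6 over the KI libraries and passed the filter only through the KO libraries; without it, 7 of 11 were called there (2 higher, 5 lower). *Fosl1*, a subunit of AP-1, was at 25.2 ± 5.19 CPM in the KO (SD, n = 4), 3.39 ± 1.19 in the WT (SD, n = 3) and 12.8 ± 1.66 in the KI libraries (SD, n = 4), with log2 fold changes against WT of 2.85 (edgeR adjusted p = 8.27e-06) and 1.90 (edgeR adjusted p = 6.24e-05). *Egr1*, an early zinc-finger factor, had the opposite direction, at 21.2, 49.4 and 20.1 CPM, with -1.24 (edgeR adjusted p = 0.000256) and -1.30 (edgeR adjusted p = 4.96e-05). *Etv4*, an ETS factor, lay in the order of *Egfr* at 5.22, 13.9 and 26.0 CPM, and *Ier3* likewise at 19.5, 35.0 and 68.2 CPM. The log2 fold change of *Etv4* was -1.42 (edgeR adjusted p = 0.000119) and 0.90 (edgeR adjusted p = 0.00246) against WT. *Phlda1* was higher in KI than in WT by 1.14 (edgeR adjusted p = 5.48e-05). These genes did not move in 1 direction within a line: in the KO cells *Fosl1* and *Jun* were called higher and *Egr1*, *Etv4* and *Ier3* lower, on either scaling. Phosphorylation of the receptors and of ERK was not measured in these files.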

How the data were processed

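The 11 libraries of polyadenylated RNA (4 KO, 3 WT, 4 KI) were grouped by their titles. The authors deposited counts of reads per gene without normalization. The submitters' processing notes name HISAT2, TopHat2, Bowtie2 and StringTie without versions; the build is not given in the sources used here, nor is the counting by strand. FPKM and the columns of the authors' own DESeq2 comparisons, with fold changes and p-values, were not used. Of 26472 lines, 10 with broken annotation fields were left out, and counts of entries with the same name were summed, which gave 24849 genes.

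Genes were filtered with edgeR's filterByExpr (minimum count 10), scaled by TMM and tested with the quasi-likelihood test (robust, prior count 2), with Benjamini-Hochberg adjustment over all genes tested and a threshold of 0.05, on the libraries of the groups compared only. Only the edgeR test was run on simulated counts with known fold changes. Levels are CPM with 1 TMM scaling over all 11 libraries. Lengths per kb are unions of exons in GENCODE vM21, and the length index used 9890 genes, the shortest 25% up to 2128.5 and the longest 25% from 5041.5 bases. Exact 95% intervals and the floor of 3 counts cover counting error only, and PCR reads are not independent molecules. R 4.3.3, edgeR 4.0.16, DESeq2 1.42.0, limma 3.58.1, Python 3.11.15, pandas 2.3.3, scipy 1.17.1 and matplotlib 3.10.9 were used. Promoter windows are those of RefSeq on GRCm38.p6.

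The members, the lists of pathway genes and of markers (hepatocyte, cholangiocyte, fibroblast or stellate, macrophage, endothelial) and the tests were chosen with earlier results of these data known. All 9 members are named; other pathway genes are named where the groups did not overlap and the absolute log2 fold change was among the 3 largest of the sublist in a comparison, except that the results of some are not reported here, and genes of like pattern are the 3 nearest with a mean log2 CPM of at least 1. A few further pathway genes (*Adam17* as a sheddase, *Jun*, *Fosb*, and those at 0 or near the floor) were named after their values were seen, and so were the windows printed. Alternatives were other size factors, library totals, no filter, a minimum count of 30, DESeq2, limma-voom, all 11 libraries in 1 fit, each table entry on its own, a replicate block, leaving out each library, and, added after seeing the data, the length index as a covariate.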

Additional observations from a re-analysis of the deposited data

Results flagged for a closer look

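The level of *Errfi1* was tested for a library far from the rest of its group, and KI 7, at 133 CPM, stood apart from the other KI libraries at 116 to 117 CPM: its gap to the nearest of them was 0.955 of the range of the group, above Dixon's 95% critical value for 4 samples. KI 7 also had the highest length index of the KI libraries, 0.23, and the part of that in the level of *Errfi1* was not tested. For *Erbb3*, KI 6, with 5 counts, stood apart from the other KI libraries with 0 counts, a gap of 1 of the range. With the others tied at 0, any count above 0 gives this gap, so the flag of *Erbb3* was set in advance. Of 18 groups examined, 2 held such a library, where chance gives about 0.9 for values that are not tied, so the 2 numbers cannot be compared.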

How the results depend on the processing

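The limits are set by the scaling, the low counts of *Erbb3* and the spread of the 3 WT libraries. Same-numbered libraries correlated at -0.19 (WT 8 and KI 8) to 0.21 (KO 8 and WT 8) over 14 pairs, and 5 of 11 libraries were closest to one of their own number. They were not treated as pairs in the main test, but low correlations in groups this small cannot exclude pairing. With a replicate block, in which 5 and 6 were merged, 4 of the 9 genes were called in KO against WT in place of 5, since *Erbb3*, at 1.59, lost its call, and the counts of 4 and 7 in the other comparisons were the same. In KO against WT the block gave edgeR adjusted p-values of 0.000184 for *Egfr* and 0.00125 for *Tgfa*, in place of 0.00342 and 0.0475. With it, genes called over the whole table went from 7364 to 8183 in KO against WT, from 5722 to 4891 in KI against WT and from 7171 to 6875 in KO against KI. In KO against WT, 3 of the 9 were called with a minimum count of 30 and with the length index as a covariate, and 3 to 5 on leaving out each library. With the minimum count of 30, *Erbb3* was not tested and *Tgfa* had an edgeR adjusted p of 0.0540. With the length index, the edgeR adjusted p was 0.0581 for *Erbb3* and 0.239 for *Tgfa*. With library totals, uncalled values turned sign in KO against WT for *Hbegf* (0.14) and in KI against WT for *Tgfa* (0.17), *Areg* (0.040) and *Btc* (0.14). With the length index, *Erbb2* turned to -0.12, -0.067 and -0.024 in KO against WT, KI against WT and KO against KI, and *Areg* to 0.010 in KI against WT. On leaving out a library, *Ereg* in KO against WT ranged from -0.027 to 0.17, *Tgfa* in KI against WT from -0.30 to 0.11, and *Erbb2* in KO against KI from -0.035 to 0.079. The call of *Lrig3* in KI against WT was lost without WT 8 (-1.05). Of 1285 alternative values, 1225 kept their direction and side of the threshold, 39 lost and 9 gained a call, and 12 turned sign. Counts of genes called over the whole table ranged from 6161 to 8449, 4276 to 6969 and 6383 to 7588 in the 3 comparisons.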
